A study of Mus musculus with 4 samples.

Results

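The distal block of mouse chromosome 14, chr14:87056260-123318495 in mm9 (36.3 Mb), is a stretch in which neighbouring genes were mostly read as higher in a mammary epithelial line depleted of the glucocorticoid receptor (GR) than in its vector control. Its members were all the non-control array probes whose annotated position lies between these limits. They were 225 probes carrying 144 gene names, out of 41174 probes and 28146 gene names on the whole array. The limits had been drawn from the difference between the lines in the deposited values. The differences given below are therefore a description of the genes that were chosen for them. Counts of members that passed a test are given further on as a description too, and not as support for the block. Of the 144 genes, 63 (103 probes) were bright enough to be kept, meaning that a probe stood well above background on both arrays of EV-50, of shGR-19 or of both lines, and 57 of these were so on all 4 arrays. The other 916 genes of chromosome 14, of which 482 were kept, served as the contrast.

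EPH-4 is a non-malignant line of spontaneously immortalized mouse mammary epithelial cells. EV-50 carries an empty vector, and shGR-19 carries an shRNA vector directed against GR, with a GR status labelled as depleted below 50%. Both are single clones picked after puromycin selection, and were kept in 2 µg/ml puromycin in medium without serum and without added glucocorticoid, so that GR was studied in its unliganded state. There were 2 Agilent one-colour arrays per line, made from 300 ng of RNA a sample, which was amplified and labelled with Cy3. The labels do not say whether the duplicates came from separate cultures, and with 1 clone per line a difference due to GR depletion and a difference between clones cannot be told apart. Since RNA was taken from whole cultures, fewer cells of a type and less RNA per cell cannot be told apart either.

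GR is a nuclear receptor that binds glucocorticoid response elements in DNA when it carries its hormone, and can act through other DNA-bound factors, such as GABP, an ETS family factor, when it does not. The distal part of mouse chromosome 14 corresponds to a large part of the long arm of human chromosome 13. It alternates long, gene-poor stretches that hold genes of neuronal surface proteins (protocadherins, the Slitrk family) with clusters of genes used by nearly every cell, for mitosis, RNA decay, ubiquitin transfer and protein folding. Its members are therefore neighbours by position and belong to no common pathway.

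Nr3c1, the gene that encodes GR and the target of the shRNA, was read first as a check on the labels. By its brightest probe the EV-50 scanner arrays read 1.81 (replicate 1) and 1.92 (replicate 2), and the shGR-19 arrays 1.46 (replicate 1) and -0.034 (replicate 2), as log2 signal over each array's 75th percentile. Only the array labelled shGR-19 replicate 2 stood well below both EV-50 arrays. The array labelled shGR-19 replicate 1 was thus nearer to EV-50 than to the other shGR-19 array in the gene that the shRNA targets, and the files used here do not settle whether each scanner file of the replicate 1 pair carries the label of its own RNA. Scanner values are therefore given by label, and the medians of the block are given for each pair of arrays as well. In the deposited value table, in which each probe is centred on its own median, the gene was 1.94 lower on the log2 scale (-1.94, SE 0.048). Over the 4 scanner arrays the difference was -1.15 (SE 0.55). Over all kept genes the scanner arrays labelled replicate 1 differed by a median of 0.026, with quartiles of -0.049 and 0.10. Those labelled replicate 2 differed by 0.018, with quartiles of -0.23 and 0.24. Between the arrays of 1 line, replicate 2 minus replicate 1, the quartiles were -0.33 and 0.29 in EV-50 and -0.38 and 0.26 in shGR-19. Between the value table columns of 1 line they were -0.11 and 0.046 in EV-50 and -0.082 and 0.067 in shGR-19. An SE from the value table therefore covers a narrower spread than that between the scanner arrays. The share of genes between 0.3 and 1 upwards was 6.36% in the replicate 1 pair, 17.1% in the replicate 2 pair and 18.3% in the value table. The 4 arrays had from 23290 to 27358 spots well above background and no saturated spot. All 8 epithelial markers, among them Krt8, Krt18, Cdh1 and Epcam, were well above background on all 4 arrays. Between the lines these 4 differed in the value table by -0.028 to 0.23, and all 8 by -1.13 to 0.23. The 3 endothelial markers were on none or on some of the arrays. Of the immune markers, Cd3e and Csf1r were on all 4, and Ptprc and Itgam were on none. The 5 fibroblast markers were higher in shGR-19 in the value table by 1.16 to 5.57, and Col1a2 and Pdgfrb were well above background on all 4 arrays. On the scanner arrays Col1a1 read -6.34 and -3.69 in EV-50, and -6.08 and 1.92 in shGR-19. The part of these markers in the values of the block was not tested.

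In the value table the 63 kept genes of the block had a median difference between shGR-19 and EV-50 of 0.55 on the log2 scale, which is 1.46-fold. Of these genes 47 (74.6%) were higher in shGR-19 and 16 were lower. The middle of the distribution ran from 0.00057 at the lower quartile to 0.76 at the upper, and 36 genes (57.1%) lay between 0.3 and 1. Among the 57 genes well above background on all 4 arrays the median was 0.55, with 41 (71.9%) higher and 16 lower. The other kept genes were well above background on both arrays of shGR-19 but not of EV-50, and all of them were higher. Their direction thus went with the filter. The 482 kept genes in the rest of chromosome 14 had a median of 0.014, with 248 (51.5%) higher and 86 (17.8%) between 0.3 and 1. Over all 16758 kept genes the median was 0.018, with 52.2% higher. Across chromosomes the medians ran from -0.32 to 0.28, and that of chromosome 14 as a whole was 0.038. The block therefore differed from its own chromosome by 0.53 at the median, through many moderate differences in the same direction and not through a few large ones.

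**Figure D1:**
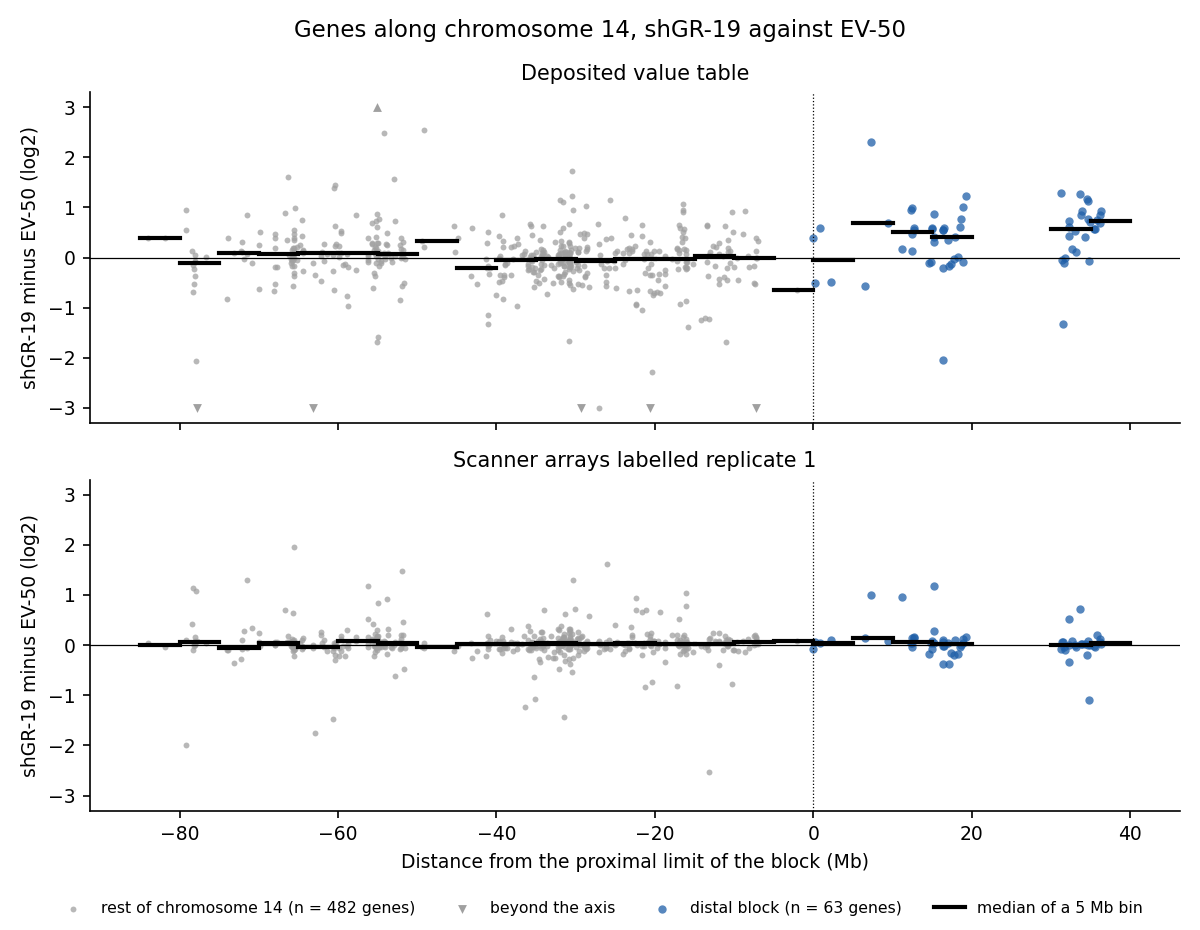
Each point is the difference of a kept gene between shGR-19 and EV-50 (log2) against its distance in Mb from the proximal limit of the block, for the deposited value table (upper) and the scanner arrays labelled replicate 1 (lower). Blue points are the 63 block genes, grey points the 482 other genes of chromosome 14, triangles the 6 of these that lie beyond the axis, and black bars the medians of 5 Mb bins. In the upper panel the bins from 5 Mb onward sit at 0.41 to 0.72, and in the lower panel the block medians lie close to 0.

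The scanner arrays gave the same direction with a smaller size. Over the 4 arrays the median difference of the block was 0.27, with 48 genes higher and 15 lower, against 0.022 in the rest of chromosome 14 and 0.016 over all genes. Among the 57 genes well above background on all 4 arrays it was 0.26, with 42 higher and 15 lower. The pairs of arrays were unlike each other. The array labelled shGR-19 replicate 1 differed from that labelled EV-50 replicate 1 by a median of 0.039 over the block, close to the 0.033 of the rest of the chromosome, and 40 of the 63 genes differed by less than 0.1 in either direction. The array labelled shGR-19 replicate 2 differed from that labelled EV-50 replicate 2 by a median of 0.52, with 53 genes higher, while the rest of the chromosome had 0.040. In the value table both pairs of columns carried the difference, with medians of 0.56 and 0.54.

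Single arrays of 1 line were set against each other as well. Between the scanner arrays labelled EV-50, replicate 2 minus replicate 1, the block had a median of -0.067, against -0.042 over all genes. Between those labelled shGR-19 it had 0.31, against -0.063 over all genes. Thus the arrays of the shGR-19 label differed from each other across the block by more than those of the EV-50 label, and a difference between the lines on the scanner arrays rests on the arrays labelled replicate 2. Gene by gene, the table differences correlated at 0.34 with the scanner replicate 1 pair and at 0.95 with the replicate 2 pair (Pearson's r). These correlations run across the 63 genes, which are neighbours measured on the same arrays and not independent replicates. The value table is the authors' own processing of array signals, and not a second independent measurement.

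**Figure D2:**
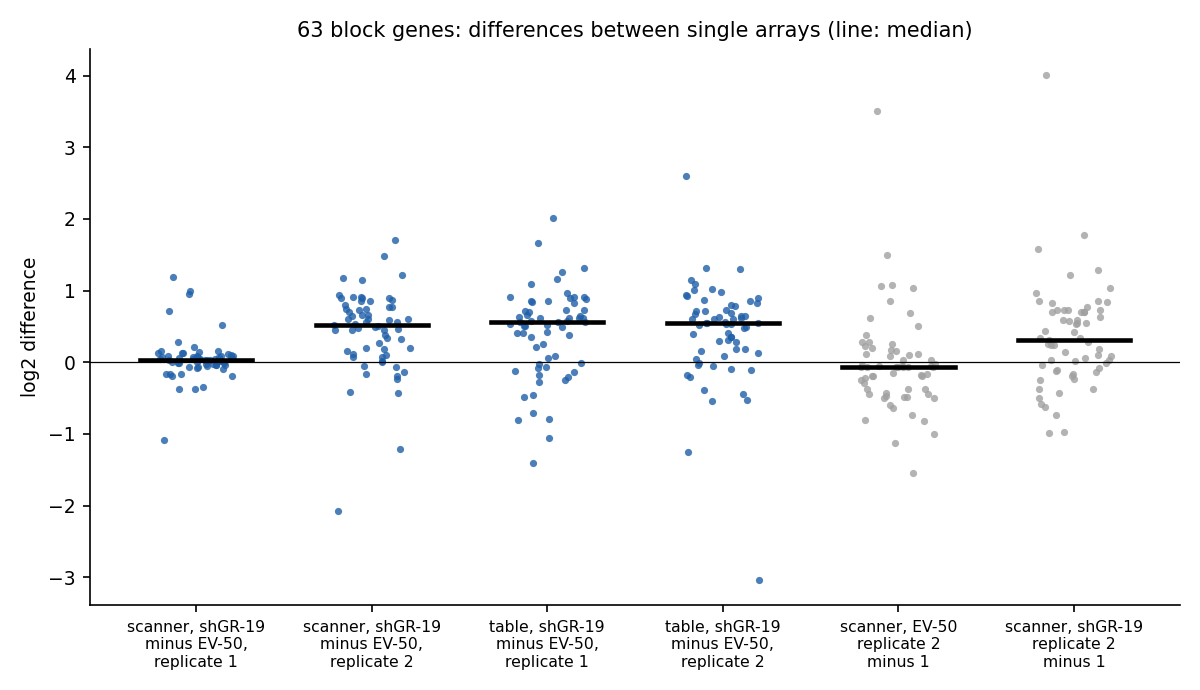
Differences between single arrays (log2) for the 63 kept block genes, with 1 point per gene and a black line at the median. The first 4 columns set shGR-19 against EV-50 within a replicate number, and the last 2, in grey, set the arrays of 1 line against each other. The scanner replicate 1 pair lies at 0.039, whereas the scanner replicate 2 pair and both pairs of the value table lie between 0.52 and 0.56.

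Along the block the difference was not even. The first 5 Mb held only 4 kept genes, with a median of -0.055. The next bins of 5 Mb had medians of 0.68 (3 genes), 0.51 (10 genes) and 0.41 (20 genes). Then came 12.1 Mb between Spry2 and Gpc6 in which none of 13 members was kept. This stretch includes the genes of Slitrk1, Slitrk5 and Slitrk6, membrane proteins that shape neurite growth, and of the proteoglycan Gpc5. Beyond it the median was 0.57 over 20 genes and 0.72 over the last 6. On the proximal side of the gap 26 of 37 genes were higher, with a median of 0.41, and on the distal side 21 of 26, with a median of 0.66. Between the scanner arrays labelled replicate 2 the medians were 0.45 and 0.63.

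The limits themselves fell on probes of Diap3 and Tmtc4. Just inside the proximal limit, Diap3 was 0.38 higher and Tdrd3 0.59 higher in the value table, and between them LOC100038980 was at -0.50. Just outside, Pcdh17, a protocadherin gene 2.12 Mb before the limit, was at -0.65, Sugt1 at 0.32 and Elf1 at -0.010, the last of these 7.07 Mb away. At the distal limit the last 3 kept genes were Pcca (0.84), Ggact (0.70, named A2ld1 on the array) and Tmtc4 (0.92). No other kept gene of chromosome 14 lies beyond them. At the proximal side the members inside and outside thus had overlapping values, while at the distal end the 3 last genes were alike.

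Genes of cell division and the cilium formed a list whose members were all kept and all higher. The 7 genes had a median of 0.59 in the table values, against the 0.018 over all genes. Bora (6720463M24Rik on the array), an activator of the mitotic kinase Aurora A, gave -0.48 and -0.54 in the EV-50 columns and 0.50 and 0.48 in the shGR-19 columns, a difference of 0.99 (SE 0.051). On the scanner arrays it read 0.047 and -0.39 in EV-50 and 0.088 and 0.82 in shGR-19. Both shGR-19 arrays lay above both EV-50 arrays, but 1 of them only by a small step. Mzt1 (2410129H14Rik), a small subunit of the gamma-tubulin ring complex, gave -0.50 and -0.40 in EV-50 and 0.40 and 0.58 in shGR-19, a difference of 0.94 (SE 0.090). Dzip1, needed for cilium formation, was 0.62 higher. Tdrd3, which was 0.59 higher, was in the list although it is a tudor domain protein that works with a topoisomerase on RNA. Pibf1, a centrosome protein, Diap3 (Diaph3 in RefSeq), a formin that builds actin filaments, and Slain1, a microtubule plus-end protein, were 0.48, 0.38 and 0.35 higher. Across this list the scanner replicate 2 pair had a median of 0.59 and the replicate 1 pair 0.041.

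The ubiquitin and protein turnover list held 9 genes, of which 8 were kept, and all 8 were higher, with a median of 0.58. Lmo7, a LIM domain protein at cell junctions that also has an F-box, gave -0.43 and -0.43 in EV-50 and 0.43 and 0.44 in shGR-19, a difference of 0.86 (SE 0.046). On the scanner arrays Lmo7 read 0.44 and -0.032 in EV-50 and 0.48 and 0.67 in shGR-19. Ndfip2, an adaptor of Nedd4 family ubiquitin ligases, was 0.77 higher, but its 3 kept probes ran from 0.066 to 1.05. The large ubiquitin ligase Mycbp2, the deubiquitinase Uchl3 and the endoplasmic reticulum protein Ubac2 were 0.59, 0.58 and 0.58 higher. Commd6 was 0.57 higher, and Rnf219 (Obi1 in RefSeq), a ligase of replication origins, 0.41 higher. Kctd12 was not kept.

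Of the RNA processing and nuclear import list, 4 of 4 genes were higher, with a median of 0.51. Mbnl2, a splicing regulator of the muscleblind family, gave -0.40 and -0.42 in EV-50 and 0.46 and 0.40 in shGR-19, a difference of 0.84 (SE 0.050). The scanner arrays read 1.62 and 1.56 in EV-50 and 1.64 and 2.48 in shGR-19. Rbm26, which takes part in the decay of nuclear RNA, was 0.60 higher, and Ipo5, an importin, 0.41 higher. The 5 kept probes of Rbm26 ran from 0.19 to 0.60. Dis3, the catalytic subunit of the RNA exosome, was only 0.12 higher (SE 0.049).

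The signalling genes held the members with some of the largest differences. Of 7 kept genes 5 were higher, with a median of 0.77. Spry2, an inhibitor of receptor tyrosine kinase signalling that is itself induced by it, was read by a probe at chr14:106291385-106291444 (mm9). It gave -0.53 and -0.76 in EV-50 and 0.63 and 0.53 in shGR-19, a difference of 1.23 (SE 0.10) or 2.34-fold. On the scanner arrays it read -0.96 and -1.70 in EV-50 and -0.80 and -0.80 in shGR-19. Here the spread lay between the EV-50 arrays. A second kept Spry2 probe was 0.19 higher, so that the size of this difference depended on the probe. Farp1, an activator of small GTPases that is also found at synapses, gave -0.54 and -0.59 in EV-50 and 0.54 and 0.57 in shGR-19, a difference of 1.12 (SE 0.049) or 2.18-fold. The scanner arrays gave 2.99 and 2.50 for EV-50 and 3.07 and 3.65 for shGR-19. Rap2a, a small GTPase of the Ras family, gave -0.45 and -0.49 in EV-50 and 0.46 and 0.45 in shGR-19, a difference of 0.92 (SE 0.049). Its scanner values were 0.69 and 0.63 in EV-50 and 0.72 and 1.50 in shGR-19, so that a single array stood above the other 3. Stk24, a sterile 20 kinase, and Dock9, an activator of Cdc42, were 0.77 and 0.71 higher. Tbc1d4, which holds back the glucose transporter of insulin-responsive cells, was at -0.091, and Ednrb, the endothelin receptor of melanocyte and enteric nerve precursors, at -0.16.

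Genes of the endoplasmic reticulum, Golgi, lysosome and glycans were higher in 7 of 8 kept, with a median of 0.56, and held large differences in both directions. Gpc6, a cell surface heparan sulfate proteoglycan, gave -0.63 and -0.66 in EV-50 and 0.63 and 0.66 in shGR-19, a difference of 1.29 (SE 0.048) or 2.45-fold, from a probe at chr14:118364029-118364088. A second Gpc6 probe gave 1.88. The scanner arrays read -0.92 and -2.46 in EV-50 and -0.99 and -0.97 in shGR-19. Gpr180, an orphan receptor-like membrane protein 198.1 kb further along, ran the other way, with 0.71 and 0.62 in EV-50 and -0.70 and -0.62 in shGR-19. This is a difference of -1.33 (SE 0.062), or 2.51-fold lower, from a probe at chr14:118562107-118562166. The scanner arrays read 1.76 and 2.05 in EV-50 and 1.83 and 0.84 in shGR-19, and only the array labelled shGR-19 replicate 2 was low. Tmtc4, an endoplasmic reticulum mannosyltransferase, was 0.92 higher. Uggt2, which recognises misfolded glycoproteins, was 0.74 higher (SE 0.20), and was well above background on 3 arrays. Tm9sf2, a Golgi and endosome membrane protein, and the chaperone Dnajc3, which restrains a kinase of the unfolded protein response, were 0.57 and 0.43 higher. Hs6st3, a heparan sulfate sulfotransferase, was at 0.10 (SE 0.13), and Gpc5 was not kept.

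The metabolism and transport list was split, with 3 of 5 kept genes higher. Pcca, a subunit of mitochondrial propionyl-CoA carboxylase, gave -0.52 and -0.37 in EV-50 and 0.37 and 0.42 in shGR-19, a difference of 0.84 (SE 0.074). Clybl, a mitochondrial enzyme that clears citramalyl-CoA, and Ggact were 0.74 and 0.70 higher. Abcc4, an exporter of cyclic nucleotides and prostaglandins, was at -0.013. Irg1 (Acod1 in RefSeq), the itaconate-making enzyme of activated macrophages, had the lowest value of the block, at -2.05, but with an SE of 0.82. Its columns read 0.63 and 0.43 in EV-50 and -0.43 and -2.61 in shGR-19, and the wide SE came from the distance between the shGR-19 columns. Dct and Slc15a1 were not kept.

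Of the 7 transcription factor genes listed, 4 were kept, 2 higher and 2 lower, with a median of 0.066. Klf5, a zinc finger factor of proliferating epithelium, gave -0.22 and -0.39 in EV-50 and 0.27 and 0.22 in shGR-19, a difference of 0.55 (SE 0.080). The neural factors Pou4f1 and Sox21 were at -0.029 and -0.11, and Dach1, well above background on neither EV-50 array, at 0.16 (SE 0.25). Klf12, Zic2 and Zic5 were not kept. In the list of adhesion, junction and neuronal surface genes 7 were found in the block by their listed names. Another listed gene lies in the block under a different array name and was not kept. The 2 kept were Klhl1 (0.68) and Pcdh9 (2.30). Klhl1 read -3.54 and -0.036 on the EV-50 scanner arrays and -3.45 and 0.56 on the shGR-19 arrays. The arrays of either line thus lay much further apart for Klhl1 than the lines did. Pcdh9, a protocadherin, read -6.24 and -6.12 on the EV-50 scanner arrays and -5.25 and -4.42 on the shGR-19 arrays, and was well above background only in shGR-19. Against the dimmest signal that counted as well above background, it was at least 1.43-fold higher there.

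**Figure D3:**
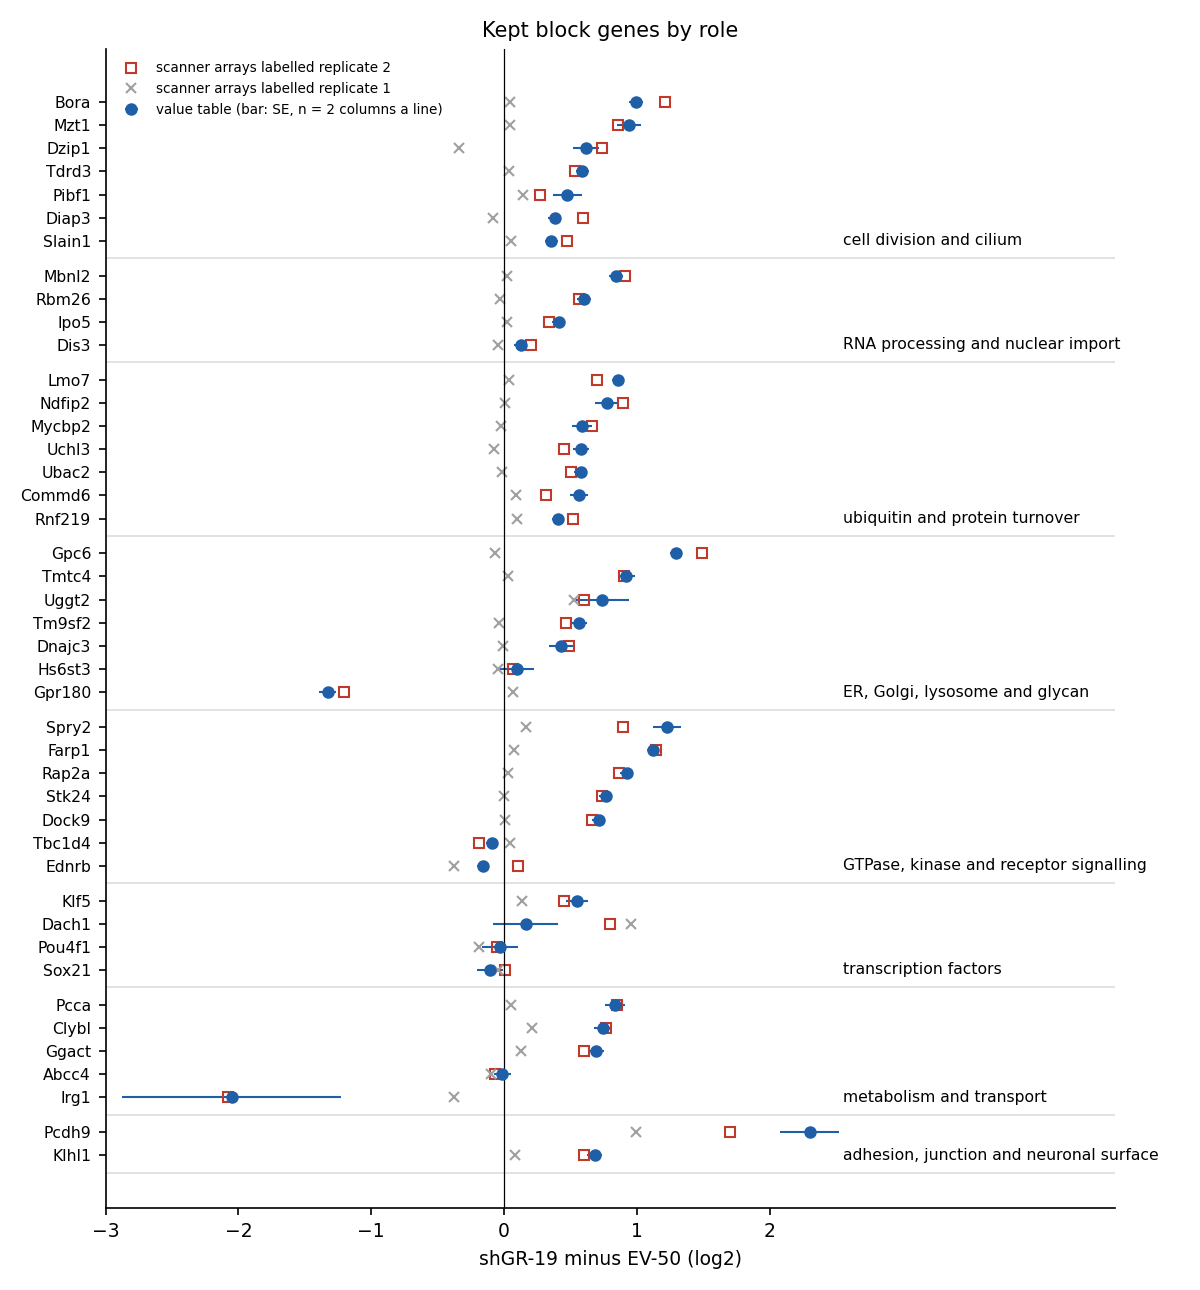
Difference between shGR-19 and EV-50 (log2) of kept listed genes, grouped by role. Blue circles with SE bars are from the value table (n = 2 columns per line), red squares from the scanner arrays labelled replicate 2 and grey crosses from those labelled replicate 1. The circles and squares of most genes lie together to the right of 0, Gpr180 and Irg1 lie to the left, and the crosses gather near 0.

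Dis3, which hardly followed the block, was a close neighbour of a gene that did. The Dis3 probe lies 4.68 kb from that of Bora, whose difference was 0.99, and the second Dis3 probe gave 0.06. Gpr180 stands between Gpc6 and Sox21, whose probes are 198.1 kb and 72.4 kb away. Of these Gpc6 was at 1.29, and the nearer Sox21 was itself at -0.11. Another kept gene, 1700008A07Rik, lies between Gpc6 and Gpr180 and was at -0.059 (SE 0.39). The kept genes next to Gpr180 on either side thus did not follow the block either. In contrast, Rap2a and Mbnl2, 77.8 kb apart, were at 0.92 and 0.84, and Farp1 and Stk24, whose probes are 3.29 kb apart, at 1.12 and 0.77.

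**Figure D4:**
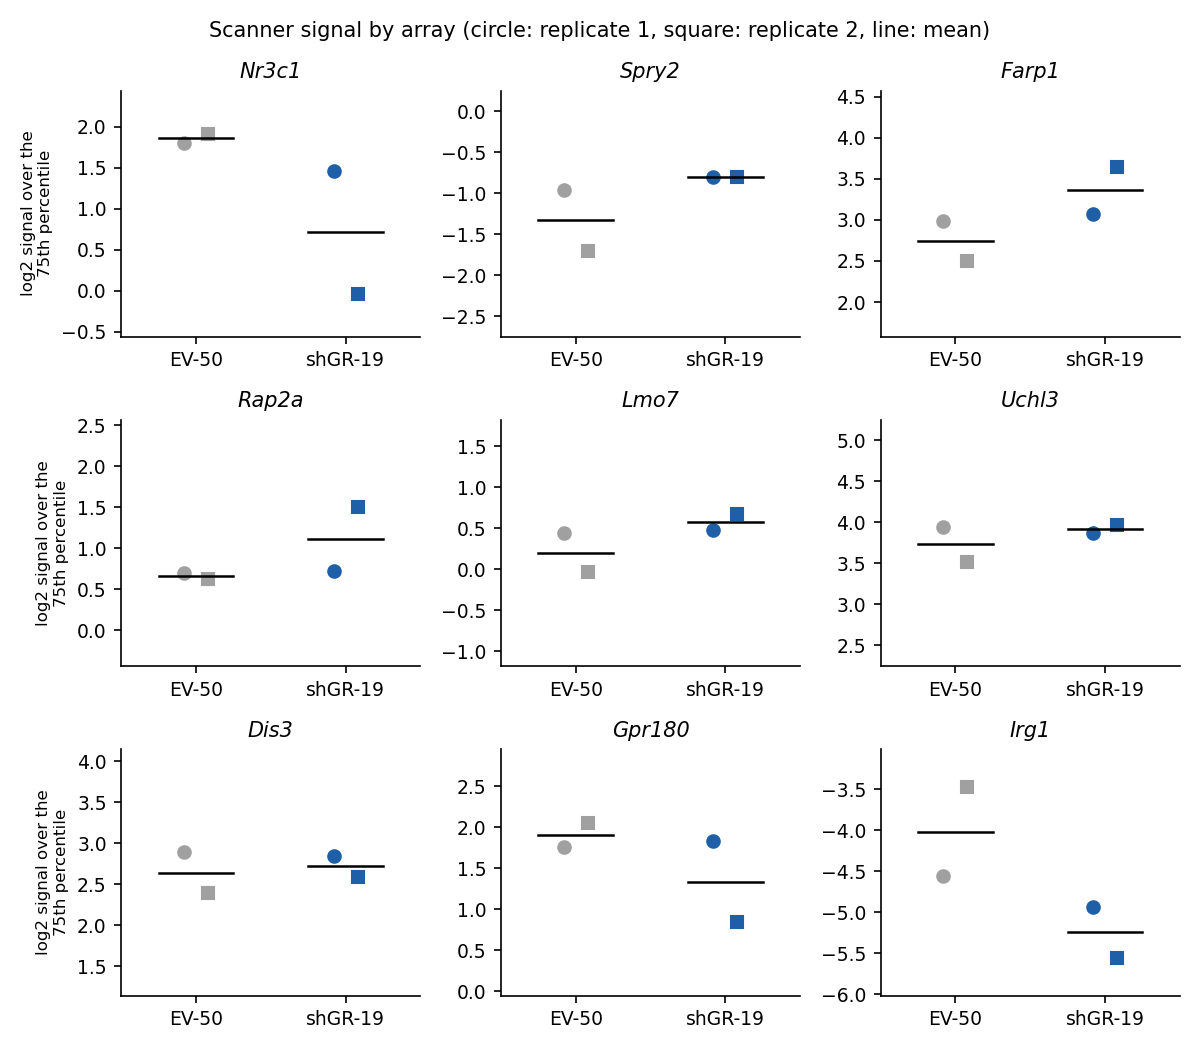
Scanner signal (log2 over the 75th percentile of the array) on each of the 4 arrays for Nr3c1 and 8 block genes. Circles are replicate 1, squares replicate 2, grey EV-50, blue shGR-19 and lines the means of 2 arrays, and each panel spans 3 log2 units. The circles of the lines are level in most panels, whereas the squares part, upwards in shGR-19 for Spry2, Farp1, Rap2a, Lmo7 and Uchl3 and downwards for Nr3c1, Gpr180 and Irg1.

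How bright a probe was and what it read also went with the size of the difference. Of the 21 brightest genes 19 were higher, with a median of 0.58 in the value table. The 21 of middle signal had a median of 0.57 with 15 higher, and the 21 dimmest had 0.16 with 13 higher. The dimmest 21 include all the genes kept only through the arrays of shGR-19, such as Pcdh9, Dach1, Pibf1 and Uggt2. All of those were higher, so that the count of 13 rests in part on the filter. Genes of the whole array at these 3 levels of signal had medians of 0.032, 0.0043 and 0.013. By RefSeq (GRCm38.p6), 72 of the 144 names matched by symbol, 10 by accession and 1 by an older name, and 61 did not match. The 46 kept genes listed as protein-coding on chromosome 14 had a median of 0.58, with 38 higher and 8 lower. The 11 kept genes without a match had -0.059, with 5 higher, and the 5 of other biotypes 0.014. Fam60a (Sinhcaf), placed in the block by the array, is a gene of chromosome 6 in RefSeq and was at 0.17. Gm9307, a ribosomal protein pseudogene (Rpl17-ps7), was at -0.21, and its probe may share signal with related copies.

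Where a gene had several kept probes they mostly ran the same way. There were 29 such genes with 69 probes, and in 25 of them all the probes had 1 direction in the value table. The exceptions were Tbc1d4, Sox21, Abcc4 and Mbnl2. In Mbnl2, 2 probes gave 0.84 and 1.06, and another, from a different place in the gene, gave -0.57, although the scanner replicate 2 pair put that probe at 0.17.

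Of the 81 members that were not kept, 64 were well above background on no array, 14 on 1 and 3 on 2 arrays. For the 64 only a bound on the signal is known, and for the others no difference is given here. The members not kept include the Slitrk genes, Gpc5, Zic2, Zic5, Dct, Pcdh20, Scel and the receptor genes Gpr18 and Gpr183.

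The calls are given as a description, since the members were chosen on the same contrast. In the value table limma called 5 of the 63 genes higher at over 2-fold and an adjusted p below 0.01 (2.16% of all genes). They were Pcdh9, Gpc6, Spry2, B930095G15Rik and Farp1. Of these, Pcdh9 was kept only through the arrays of shGR-19, the line in which it was higher. Limma called 1 gene lower, Gpr180, beside 2.7% of all genes. Without a limit on the fold, 24 were called higher (6.12% of all genes) and 1 lower (6.51%). At an adjusted p below 0.05 without that limit, 42 were called (37.2% of all genes). More than a 2-fold difference, with no test, was seen for 6 genes upwards (2.97% of all genes) and 2 downwards (3.81%). Among the 57 genes well above background on all 4 arrays these counts were 4 and 2. The values of the lines did not overlap in the table for 44 genes that were higher (37.6% of all genes) and 9 that were lower (34.1%), and overlapped for 10. On the scanner arrays limma called 0 of the 63 (0% of all genes in either direction), with 3 at an unadjusted p below 0.05 (0.907% of all genes). More than a 2-fold difference was seen there for 1 gene upwards (1.17% of all genes) and 1 downwards (1.34%). There 20 genes were higher without overlap (12.3% of all genes), 2 were lower without overlap (6.3%) and 41 overlapped.

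Promoters of 38 of the 46 protein-coding members were found in RefSeq, each as the 250 bases before and 50 bases after a transcript start. They were searched on both strands for a full palindromic glucocorticoid response element, and for an ETS site of the kind that GABP binds, CCGGAAGT. The element was in none of the 38 and in 2 of 17492 promoters of protein-coding genes (0.0114%). The ETS site was in 1 of the 38 (2.63%), that of Uggt2, and in 995 of all (5.69%). A match is a description of the letters and not of binding. The members' promoters held a median of 25.5 CG dinucleotides, against 15 over all promoters. The 38 were promoters of kept genes only, whereas the 17492 were taken whether or not the gene was kept. These shares and medians therefore compare unlike sets, and are not read as a trait of the block. The sequences of 6 members are shown 5′ to 3′ (GRCm38.p6, RefSeq) because they stand for the kinds of gene described above, with CG in capitals in the first 5 and the ETS site in capitals in that of Uggt2. Spry2 and Rap2a were higher, Dis3 was nearly level beside higher neighbours, and Gpr180 and Irg1 were lower.
Spry2, chr14:105896770-105897069, minus strand: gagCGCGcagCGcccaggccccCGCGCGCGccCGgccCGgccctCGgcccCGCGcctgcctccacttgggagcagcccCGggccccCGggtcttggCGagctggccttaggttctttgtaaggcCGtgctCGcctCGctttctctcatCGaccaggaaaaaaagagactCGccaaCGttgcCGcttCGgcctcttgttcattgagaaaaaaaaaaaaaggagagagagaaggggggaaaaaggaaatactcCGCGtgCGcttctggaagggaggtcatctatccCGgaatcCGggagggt
Rap2a, chr14:120478211-120478510, plus strand: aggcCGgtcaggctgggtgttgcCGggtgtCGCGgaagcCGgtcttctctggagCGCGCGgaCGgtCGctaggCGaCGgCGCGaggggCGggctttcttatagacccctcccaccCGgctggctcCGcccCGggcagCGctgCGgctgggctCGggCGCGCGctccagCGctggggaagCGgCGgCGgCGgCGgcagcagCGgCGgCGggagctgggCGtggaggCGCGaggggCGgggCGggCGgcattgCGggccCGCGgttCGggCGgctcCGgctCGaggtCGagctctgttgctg
Dis3, chr14:99099721-99100020, minus strand: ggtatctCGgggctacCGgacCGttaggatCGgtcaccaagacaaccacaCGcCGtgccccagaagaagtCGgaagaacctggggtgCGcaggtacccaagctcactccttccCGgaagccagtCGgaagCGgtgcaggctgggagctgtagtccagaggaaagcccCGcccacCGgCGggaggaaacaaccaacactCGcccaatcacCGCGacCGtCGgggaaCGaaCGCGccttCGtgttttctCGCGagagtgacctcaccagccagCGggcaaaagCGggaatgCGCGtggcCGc
Gpr180, chr14:118136877-118137176, plus strand: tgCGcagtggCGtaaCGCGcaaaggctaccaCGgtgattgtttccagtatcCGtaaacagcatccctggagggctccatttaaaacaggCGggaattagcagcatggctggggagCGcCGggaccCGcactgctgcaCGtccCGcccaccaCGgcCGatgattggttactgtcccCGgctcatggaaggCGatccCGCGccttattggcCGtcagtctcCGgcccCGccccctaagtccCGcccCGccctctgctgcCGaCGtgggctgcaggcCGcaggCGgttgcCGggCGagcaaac
Irg1, chr14:103046762-103047061, plus strand: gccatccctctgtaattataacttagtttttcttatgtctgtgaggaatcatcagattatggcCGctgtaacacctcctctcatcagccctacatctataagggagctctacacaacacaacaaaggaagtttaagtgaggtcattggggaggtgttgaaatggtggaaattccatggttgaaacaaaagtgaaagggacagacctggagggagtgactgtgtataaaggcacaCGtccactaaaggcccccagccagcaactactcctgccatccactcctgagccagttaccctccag
Uggt2, chr14:119099385-119099684, minus strand: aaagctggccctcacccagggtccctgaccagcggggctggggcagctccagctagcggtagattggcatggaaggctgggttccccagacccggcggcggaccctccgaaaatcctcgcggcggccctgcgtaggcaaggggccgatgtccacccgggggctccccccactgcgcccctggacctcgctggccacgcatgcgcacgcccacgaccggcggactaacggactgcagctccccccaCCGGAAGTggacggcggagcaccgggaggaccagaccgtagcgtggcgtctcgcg

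Rap2a had 47 CG dinucleotides, Spry2 28, Dis3 30 and Gpr180 29, so that the lower gene Gpr180 had a promoter as rich in CG as Spry2 and Dis3. Irg1 had 2. Dis3 and Pibf1 face each other, and the annotated genes overlap at their starts by 346 bases, while their differences in the value table were 0.12 and 0.48.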

How the data were processed

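RNA of the lines EV-50 and shGR-19 was measured on 2 arrays each. The deposited scanner files (Agilent Feature Extraction 10.5.1.1, per the labels) hold a background-subtracted intensity per spot, made by the authors with the default one-colour settings and without scaling of one array to another. A second deposited source is the authors' GeneSpring table of log2 values, in which every probe is centred on its median. Coordinates are those of mm9, given in the scanner files. A few members and markers are not reported here by name, but stay in the counts and medians of their lists. Exon and intron positions of the probes were not analysed here.

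Intensities were put on the log2 scale relative to each array's 75th percentile after control and outlier spots had been removed, and duplicate spots were averaged. A probe was kept (24441 were) if both arrays of EV-50 or both of shGR-19 had it well above background, and the brightest kept probe stood for a gene. The table was joined by probe name. Both sources were fitted with limma 3.58.1 in R 4.3.3 (lmFit, eBayes, Benjamini-Hochberg adjustment over the kept probes), which gave the differences, their standard errors (SE) and the calls at over 2-fold and an adjusted p below 0.01. With 2 arrays per line the number of arrays limits the precision, and p-values cover only the spread between these arrays. For the value table they cover the spread between its columns, which was narrower than that between the scanner arrays. The fit was tested on simulated data. A fold to a line not above background is a lower bound. Named genes were members of 8 role lists, the 10 largest increases and 5 largest decreases, 3 genes on either side of each limit, and Nr3c1. The members, lists and motifs were chosen with earlier results of these data known. The alternatives were other filters, background correction and scalings, the mean of a gene's probes, narrower limits, each array left out, the replicate number as a block, a robust prior with an intensity trend (statmod 1.5.0) and other thresholds. Restrictions to the arrays labelled replicate 2 and to RefSeq protein-coding genes were added after the data were seen.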

Additional observations from a re-analysis of the deposited data

How the results depend on the processing

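The block stayed higher at the median under the other scalings and background correction, and turned only when all probes were kept. With dim probes included (144 genes), the median difference was -0.12 on the scanner arrays and -0.065 in the value table, where block minus rest of the chromosome was 0.084. The share of genes higher was then 43.8% and 46.5%, the genes over 2-fold were 14 and 20 (7.2% and 8.02% of all genes), and 0 genes were called in the table (0.135% of all genes). With genes within 2 Mb of either limit left out, the table median was 0.45 and block minus rest was 0.44. With protein-coding genes on chromosome 14 alone, the table median was 0.58 and 82.6% were higher.

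With each array left out in turn, the scanner median ran from 0.063 (without shGR-19 replicate 2) to 0.47 (without shGR-19 replicate 1). Block minus rest ran from 0.0026 to 0.46, the share higher from 65.1% to 84.1%, and the genes over 2-fold from 1 to 8. In the table the median ran from 0.52 to 0.55, the share higher from 71.4% to 82.5%, and the genes over 2-fold from 8 to 10. Of the 6 genes that limma called in the full table, 0 were called without any 1 of the 4 columns, and neither was any other gene of the array (0%). There the spread of the line with 1 column was taken from the other line, and from 43 to 44 genes still had an unadjusted p below 0.05, as did from 37.4% to 40.5% of all genes. At an adjusted p below 0.05 without a limit on the fold, limma called 42 genes in the full table (37.2% of all genes).

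With the replicate number as a block, the medians did not move, and limma called 0 of the 63 genes in the table and 0 on the scanner arrays, and 0% of all genes in either. Deviations of same-numbered arrays had a correlation of 0.57 on the scanner arrays and 0.056 in the table over all kept probes. With 2 numbers this does not settle whether the numbers pair the arrays.

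Taken as alternatives to the scanner arrays, the value table called 6 genes and had 8 over 2-fold. The arrays labelled replicate 2 alone had 7 over 2-fold, normexp correction 0, and probes well above background on all 4 arrays 1, where the main scanner count was 2. Of 50 named genes, 45 kept their sign in the table under every setting and 24 on the scanner arrays. The cause of these shifts was not tested. The mean of a gene's probes was not run for the calls, which come from a fit of single probes.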
